A study of Mus musculus with 16 samples.

Results

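The genes described are 37 mouse genes of the interferon response and of MHC class I antigen presentation, taken by symbol from a table of read counts with 54052 entries. Each symbol matched 1 entry. They were followed in 16 RNA sequencing libraries of ES-E14TG2a, a line of mouse embryonic stem cells. The cells held either a hairpin labelled shNT, taken as the control, or a hairpin against Beclin1 (shBeclin1). The libraries form 8 groups of 2. At day 0 the groups are embryonic stem cells with shNT or with shBeclin1. At day 4 they are embryoid bodies with shNT or with shBeclin1. At day 10 they are cells labelled CM, with the cell type given as cardiomyocyte, and cells labelled CM without GF, again with either hairpin. The genotype tag of every library reads WT, a tissue tag reads heart throughout, a batch tag repeats the group, so that batch and group cannot be told apart, the labels do not spell out GF, and they name only 1 hairpin against Beclin1. They do not say whether a group is a clone or a pool of cells, or whether replicates were separate cultures, so p-values measure the spread between these libraries, which may be technical.

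Interferons are secreted proteins that warn cells of virus infection. Type I interferons bind the receptor chains Ifnar1 and Ifnar2, the JAK kinases attached to the receptor are activated, and a complex that contains Stat2 and Irf9 enters the nucleus and binds interferon stimulated response elements. Interferon gamma acts through gamma activated sites. The target genes code for sensors of viral RNA, antiviral effectors and inhibitors of the pathway, and embryonic stem cells are known for a weak response. MHC class I molecules, made of a heavy chain such as H2-K1 or H2-D1 and of beta-2 microglobulin (B2m), show peptides to T cells. The peptides are cut by the proteasome, carried into the endoplasmic reticulum by Tap1 and Tap2 and loaded with the help of tapasin (Tapbp). Interferons raise many of these genes, and pluripotent cells carry little class I.

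The motif that marks interferon target genes is shown in the promoters of 3 antiviral genes and of B2m, which behaved differently in these libraries. The stretches are the 150 bases before the transcript start, read in the direction of transcription from RefSeq on GRCm38.p6. Capitals mark the core of the interferon stimulated response element, which is GAAA, any 2 bases, GAAA, read on either strand.
Rsad2, chr12:26456453-26456602, minus strand: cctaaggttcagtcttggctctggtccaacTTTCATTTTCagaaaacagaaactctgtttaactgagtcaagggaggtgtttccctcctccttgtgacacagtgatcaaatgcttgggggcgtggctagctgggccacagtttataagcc
Ifit1, chr19:34640739-34640888, plus strand: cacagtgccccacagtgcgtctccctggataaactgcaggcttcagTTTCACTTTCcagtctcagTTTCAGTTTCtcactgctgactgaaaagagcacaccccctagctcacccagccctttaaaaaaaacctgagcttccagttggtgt
Bst2, chr8:71537473-71537622, minus strand: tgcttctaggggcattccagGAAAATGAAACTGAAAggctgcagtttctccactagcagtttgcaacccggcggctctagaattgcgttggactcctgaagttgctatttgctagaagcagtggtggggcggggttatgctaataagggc
B2m, chr2:122147537-122147686, plus strand: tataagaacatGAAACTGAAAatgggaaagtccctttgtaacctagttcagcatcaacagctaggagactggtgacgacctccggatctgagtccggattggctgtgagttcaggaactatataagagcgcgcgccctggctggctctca

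The Ifit1 stretch holds 2 separate matches, and the 2 matches of Bst2 overlap. In the window from 250 bases before to 50 bases after the start, 11 of the 28 members with a RefSeq promoter (39.3%) held the core, against 3.99% of the 27025 genes and 3.44% of the 32851 promoters in the table. They are B2m, Bst2, Ddx58, Ifih1, Ifit1, Ifit3, Ifitm2, Ifitm3, Isg15, Rsad2 and Stat2. The gamma activated site, TTCNNNGAA on either strand, was found in Bst2, Ifi35, Ifit2, Ifitm3, Irf1 and Psmb8, which is 6 of 28 members (21.4%) against 9.55% of genes and 8.3% of promoters. In Bst2 and Ifitm3 the sites of both kinds overlap. A match describes letters in the window and not a bound site. Genes without a match may hold one elsewhere, or a variant in the window that the exact letters miss. H2-K1 and H2-D1, which had no match of the core, both hold tttcacttct in the 200 bases before the start.

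**Figure D1:**
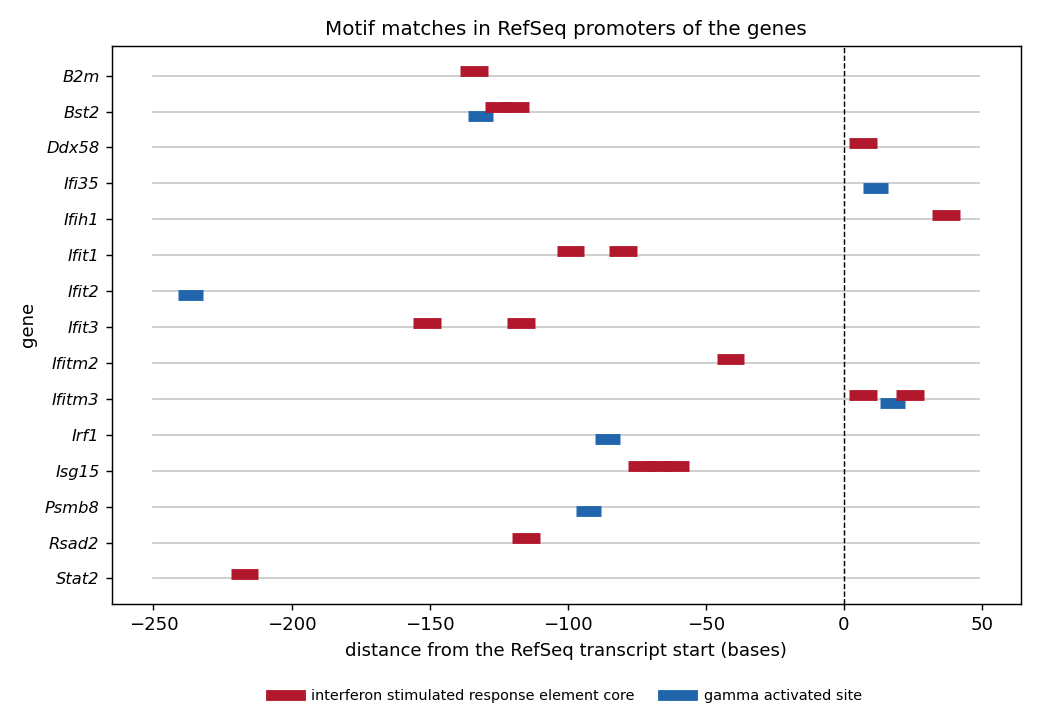
Positions of the 2 motifs in the RefSeq promoters of the members that hold at least 1 match, in bases from the transcript start (0, dashed line); red bars are interferon stimulated response element cores, blue bars are gamma activated sites, and grey lines span the searched window. Most of the cores lie upstream of the start, and those of Ddx58, Ifih1 and Ifitm3 lie after it.

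The libraries held 14967744 to 21422980 counts each, and 3 counts corresponded to 0.131 to 0.209 CPM, a count scaled to the size of its library. Levels below are TMM-scaled CPM, given as replicate 1 and replicate 2 of a group, and n = 2 throughout. Becn1, the targeted gene, stood at 89.3 and 85.2 CPM at day 0, 73 and 72.2 at day 4, 59.7 and 58.2 in CM, and 63.5 and 60.9 in CM without GF in shNT libraries. The shBeclin1 libraries gave 36.2 and 40.0 CPM at day 0, 33.7 and 38.4 at day 4, 36.9 and 36.3 in CM, and 42.7 and 45.2 in CM without GF, which left 43.6% at day 0, 49.7% at day 4, 62.1% in CM and 70.7% in CM without GF. The log2 fold change of Becn1 was -1.20 ± 0.08 (SE, adjusted p = 2.42e-13) at day 0, -1.01 ± 0.08 (SE, adjusted p = 6.23e-13) at day 4, -0.69 ± 0.08 (SE, adjusted p = 1.77e-09) in CM and -0.50 ± 0.07 (SE, adjusted p = 5.17e-07) without GF. Of its exon bases, 43.9% lie opposite Cntd1, and the sources do not say whether reads were counted by strand. The labelled cell types were checked against lists of marker genes. The 8 cardiomyocyte markers summed to 39.0 to 41.5 CPM in CM shNT and 18 to 22 in CM without GF shNT, against 3686 to 4058 and 2155 to 4123 in the shBeclin1 libraries of these cultures, and Tnnt2 in CM shNT was 0.744 and 1.8 CPM. The shNT libraries labelled cardiomyocyte thus lacked the markers of that cell type. RNA came from mixed cells, so fewer cells of a type and less RNA per cell cannot be told apart.

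More members had their highest level in day 10 CM cells with shNT than in any other group. Of the 37 genes, 17 had their highest mean level in CM shNT. Among the 35 members tested below it was 16 (45.7%), whereas 9.38% of all 19141 genes tested did. Ifit1, Ifi44, Ifit3, Isg15 and Rtp4 passed the filter on low counts only through CM shNT. For these genes the filter favoured CM shNT as the highest group, also in the comparisons with CM shNT below. A mean of at least 1 CPM was reached by 31 members in CM shNT and by 19 to 24 members in the other 7 groups. At day 0, 5 members had no count in shNT libraries and 5 had none in shBeclin1 libraries; in CM shNT every member had counts. Per kilobase of exon, the most abundant members in CM shNT were Ifitm2 at 134.6 CPM per kb, B2m at 112.4 and Ifitm3 at 58.2, while Rsad2 stood at 5.15 and Usp18 at 3.68. Rsad2 and Usp18, although raised there, thus stayed well below Ifitm2 and B2m on this scale.

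**Figure D2:**
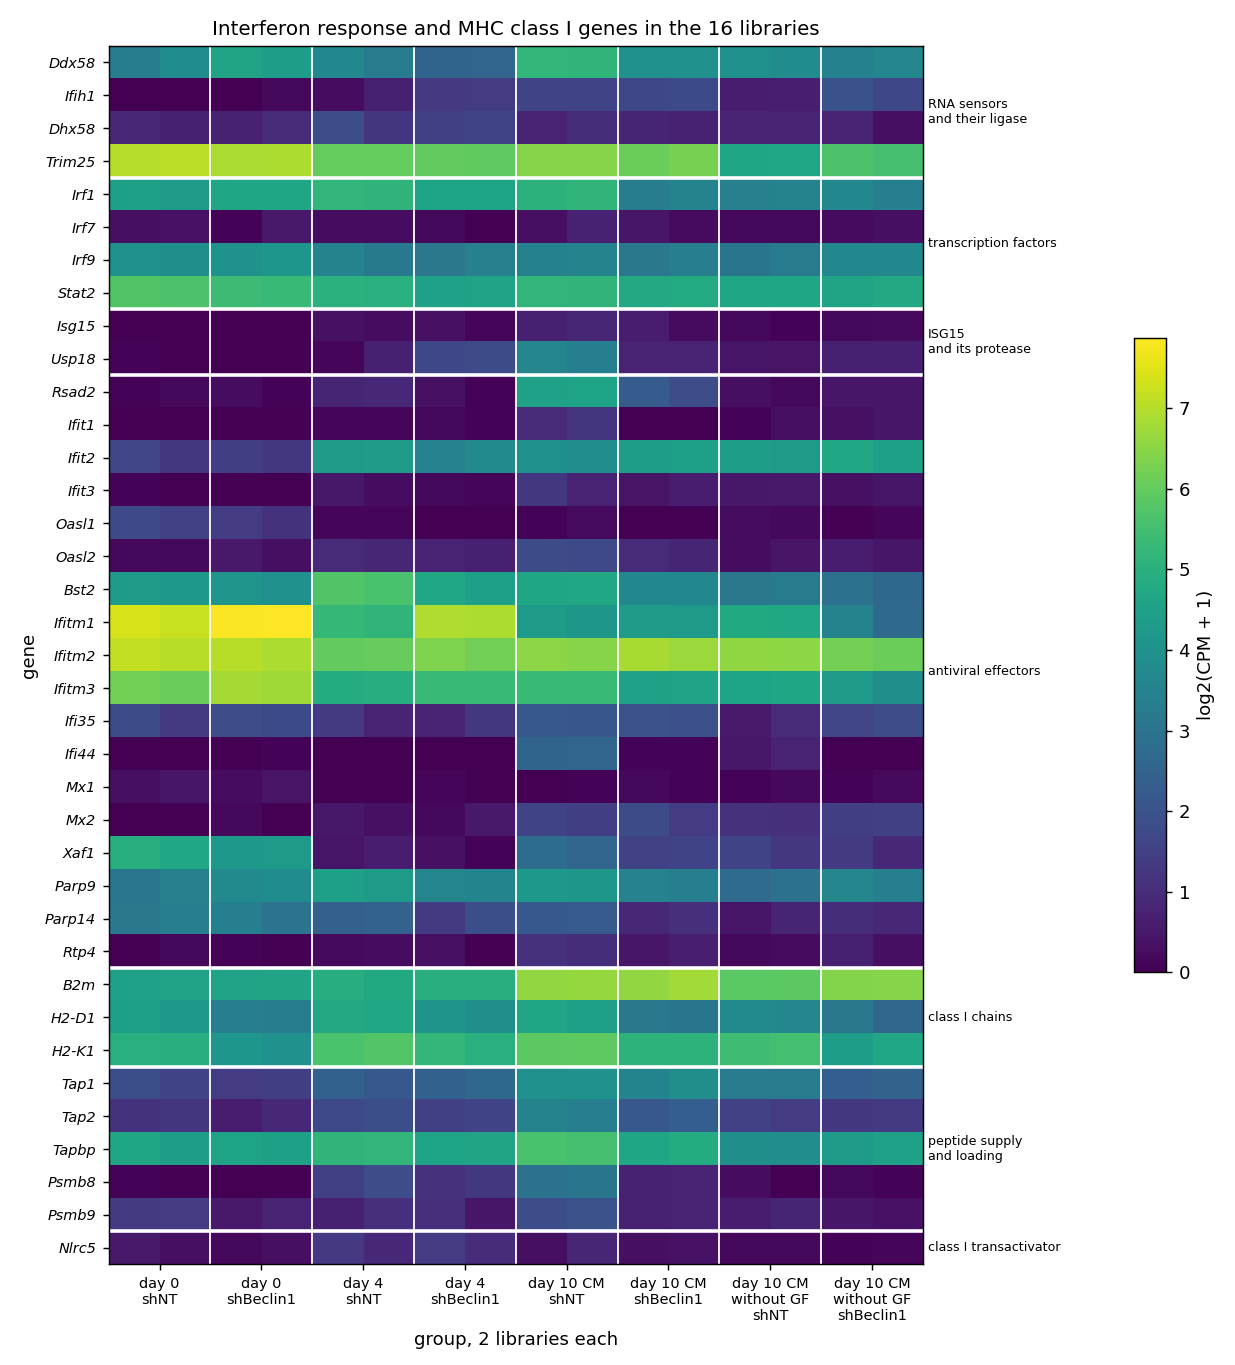
Levels of the 37 genes in the 16 libraries as log2(CPM + 1), with genes in rows by role and 2 libraries per group in columns. In CM shNT, genes such as Rsad2, Usp18, Ifi44 and Psmb8 are brighter than in the other groups, and Ifitm1 and Trim25 are brightest at day 0.

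The comparison of shBeclin1 with shNT cells at each point asks how the genes respond to Beclin1 knockdown. In day 10 CM cells 21 members fell and 2 rose, of 35 tested, while 19.1% of all genes tested fell and 19.2% rose. At day 0, 4 members rose and 5 fell (5.79% and 7.55% of all genes tested). At day 4, 5 rose and 11 fell (10.7% and 10.1%). In CM without GF, 8 rose and 9 fell (27.3% and 27.3%), so the shares there were close to those of all genes. The median log2 fold change over tested members was -0.03 at day 0, -0.38 at day 4, -1.01 in CM and 0.01 without GF, beside -0.01, 0.02, -0.02 and -0.01 over all genes tested. With Ifit1 and Oasl1, which had no count in CM shBeclin1, set to their bounds, the median in CM was -0.86. Calls are edgeR quasi-likelihood tests with a Benjamini-Hochberg adjusted p under 0.05 over all genes tested, and values after ± are standard errors (SE) of the fit. Irf7 and Mx1 were not tested for their low counts. Ifit1, Ifi44 and Ifit3, which are counted among the falls in CM, were tested only through their counts in CM shNT. The filter on low counts thus favoured a fall of these genes there, and their calls add no separate support. At day 0 the count of 9 calls fell to 4 without replicate 2 of shBeclin1.

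Over the 4 points, 29 of 35 tested members (82.9%) were called at least once, against 71% of all genes tested. The heavy chains H2-K1 and H2-D1 fell at every point, a pattern that 0.308% of all genes tested showed. A further 9 members were called in both directions at different points, namely Ddx58, Ifit2, Ifitm1, Ifitm2, Ifitm3, Parp9, Tapbp, Trim25 and Usp18, which is 25.7% of the tested members against 15.8% of all genes tested. Dhx58, Isg15, Mx2, Nlrc5, Oasl1 and Rtp4 were called at none (17.1% against 29% of all genes tested).

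**Figure D3:**
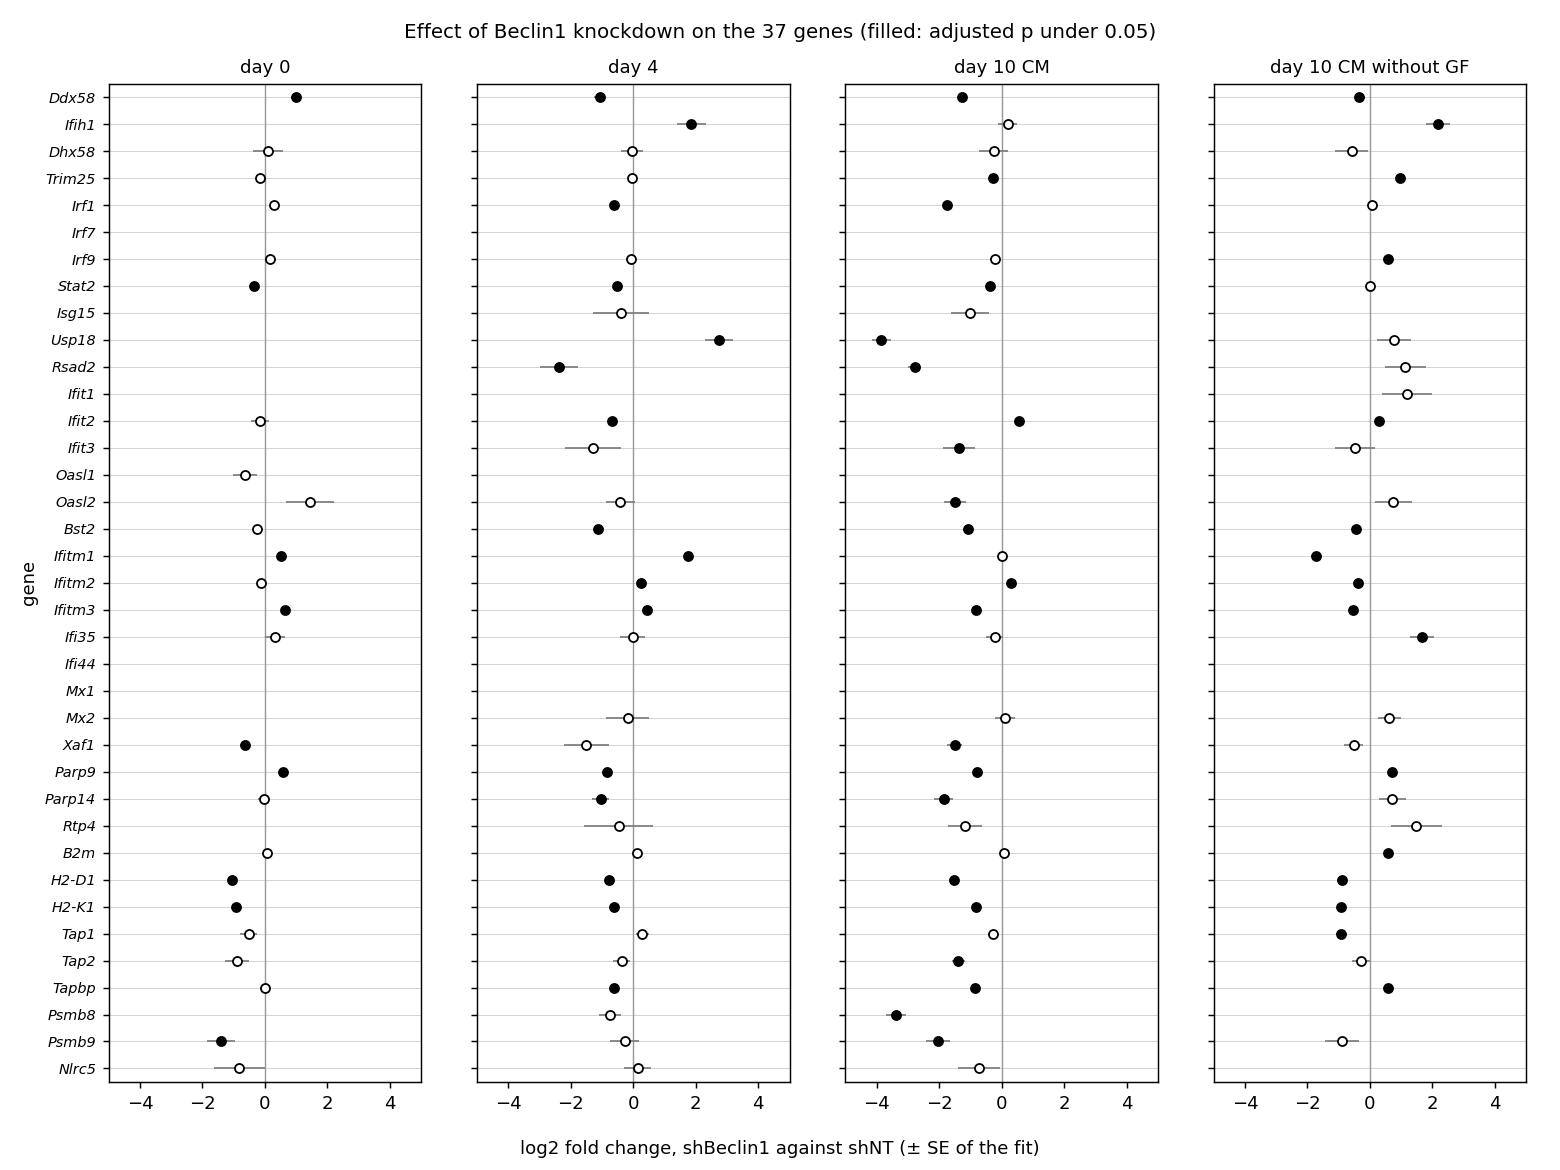
Log2 fold change of shBeclin1 against shNT at the 4 points, with the SE of the fit, for each member; filled points passed an adjusted p under 0.05, and a point is left out where either group held 3 counts or fewer. Most filled points lie left of 0 in day 10 CM, and H2-K1 and H2-D1 lie left of 0 in all 4 panels.

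The knockdown coincided with other differences between the cells. In CM, all 8 cardiomyocyte markers rose and 5 of 6 pluripotency markers fell, with a pluripotency sum of 147 to 157 CPM in shNT and 55.2 to 56.9 in shBeclin1. Of the 8 endothelial markers, 1 rose and 4 fell, and their sums overlapped at 789 to 806 and 767 to 836 CPM. The 12 blood and macrophage markers summed to 4.75 to 6.39 CPM in shNT and 7.27 to 9.07 in shBeclin1, with Fcgr1 at 0 in both groups, and of the 6 that were tested 4 rose and 1 fell. The trophoblast markers summed to 42.9 to 45 CPM in shNT and 177 to 193 in shBeclin1, with 3 of 6 higher and 2 lower. The trophoblast list was Cdx2, Gata3, Tfap2c, Hand1, Ascl2 and Krt7. The endoderm markers summed to 58.6 to 62.6 and 157 to 164 CPM, with 2 of 6 higher and 2 lower. Of these, Afp, Ttr and Apoa1 held 27, 7 and 28 counts in CM shBeclin1. The sum there thus came mostly from the rest of the list, Sox17, Foxa2 and Gata6. Such sums can rest on few genes and do not give numbers of cells. The mesoderm markers summed to 261 to 264 and 0.819 to 1.35 CPM, with 2 of 5 lower, and the fibroblast markers to 1828 to 2046 and 2434 to 2583, with 2 of 7 higher and 3 lower. Without GF, all 8 cardiomyocyte and all 8 endothelial markers rose, the endothelial sum from 70.5 to 72.9 CPM in shNT to 238 to 315 in shBeclin1. There, 1 of 6 pluripotency markers rose and 5 fell, with sums of 230.2 to 249 CPM in shNT and 35.3 to 43.9 in shBeclin1. The endoderm markers summed to 48.6 to 53.2 and 221 to 237 CPM, with 5 of 6 higher and 1 lower, and the trophoblast markers to 11.8 to 14.4 and 71.3 to 76.1, with 4 of 6 higher and 1 lower. At day 4, 4 of 5 mesoderm markers rose, with sums of 941 to 947 and 1854 to 1861 CPM, and 4 of 6 trophoblast markers rose, with sums of 12.3 to 16.4 and 34.3 to 37.3. The part of these shifts in the results below was not tested.

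Of the 4 genes for RNA sensors and their ligase, 1 rose and 0 fell with knockdown at day 0, 1 rose and 1 fell at day 4, 0 rose and 2 fell in CM, and 2 rose and 1 fell without GF. Of all genes tested, 5.79% rose and 7.55% fell at day 0, 10.7% and 10.1% at day 4, 19.2% and 19.1% in CM, and 27.3% and 27.3% without GF. Ddx58, which codes for RIG-I, a cytoplasmic detector of viral RNA, changed direction over time. Its level in shNT libraries was 9.2 and 12.9 CPM at day 0, 11.8 and 8.68 at day 4, 36.2 and 34.7 in CM, and 14.3 and 13 in CM without GF. With the Beclin1 hairpin it stood at 23 and 20.5 CPM at day 0, 4.78 and 4.9 at day 4, 14.9 and 14.9 in CM, and 10.1 and 11.5 in CM without GF. The shBeclin1 libraries lay above those of shNT at day 0 and below them at the other points, with no overlap. Knockdown gave a log2 fold change of 0.98 ± 0.14 (SE, adjusted p = 4.83e-06) at day 0, -1.07 ± 0.17 (SE, adjusted p = 8.6e-06) at day 4 and -1.25 ± 0.12 (SE, adjusted p = 9.67e-11) in CM. Without GF it was -0.34 ± 0.14 (SE, adjusted p = 0.04), a call that was lost without replicate 1 of shNT (adjusted p = 0.21), without its replicate 2 (0.0505) or without replicate 1 of shBeclin1 (0.199), and under DESeq2 (0.15).

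Ifih1 codes for MDA5, a sensor of long double-stranded RNA. It held 0 counts in day 0 shNT libraries and never passed 3 CPM. With knockdown it rose at day 4, with a log2 fold change of 1.86 ± 0.47 (SE, adjusted p = 0.00325), and in CM without GF, with one of 2.17 ± 0.38 (SE, adjusted p = 8.63e-06). Without replicate 1 of shNT the day 4 change no longer passed (adjusted p = 0.112). In CM its log2 fold change was 0.20 ± 0.31, with a 95% confidence interval of -0.42 to 0.82, the kind of interval given below for other changes that did not pass. Dhx58, which codes for the related regulator LGP2, stayed between 0.253 and 2.65 CPM in all libraries and passed the test at no point.

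Trim25 codes for a ubiquitin ligase that promotes RIG-I signalling. The shNT libraries gave 127 and 132 CPM at day 0, 63.2 and 62.9 at day 4, 86.1 and 85.9 in CM, and 24.1 and 25.3 in CM without GF. Under knockdown the values were 115 and 118 CPM at day 0, 61.6 and 60.9 at day 4, 67.9 and 75 in CM, and 50.5 and 46.1 in CM without GF. The groups did not overlap at any point; shBeclin1 was lower at day 0, day 4 and in CM and higher without GF. The log2 fold change was -0.27 ± 0.07 (SE, adjusted p = 0.00143) in CM and 0.97 ± 0.08 (SE, adjusted p = 2.31e-13) without GF, and the intervals were -0.29 to -0.03 at day 0 and -0.19 to 0.10 at day 4. The fall in CM was lost without replicate 1 of shBeclin1 (adjusted p = 0.0706). The effect in CM minus that without GF was -1.23 ± 0.10 (SE, adjusted p = 2.52e-12) on the log2 scale.

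Of the transcription factors, Irf1, an activator of interferon and class I genes, had the largest change at day 4 and in CM among the 3 tested. With the control hairpin it stood at 20.7 and 18.8 CPM at day 0, 34.9 and 34.1 at day 4, 32.7 and 34.7 in CM, and 9.68 and 10.6 in CM without GF. The values with shBeclin1 were 24.3 and 24.4 CPM at day 0, 22.5 and 22.7 at day 4, 9.2 and 10.6 in CM, and 11.7 and 9.6 in CM without GF. The shNT libraries lay above those of shBeclin1 at day 4 and in CM and below them at day 0, and the groups overlapped without GF. Knockdown gave a log2 fold change of -0.61 ± 0.10 (SE, adjusted p = 1.6e-05) at day 4 and -1.76 ± 0.11 (SE, adjusted p = 5.35e-16) in CM. At day 0 it was 0.30 ± 0.11 (SE, adjusted p = 0.0545) and missed the threshold, and without GF it was 0.07 ± 0.13, with an interval of -0.19 to 0.32.

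Stat2, a component of the complex that carries the type I signal, changed less. In shNT libraries it was 52.1 and 49.8 CPM at day 0, 31.6 and 30.8 at day 4, 35.2 and 34.2 in CM, and 24.5 and 24.5 in CM without GF. In shBeclin1 libraries it was 40.8 and 38.3 CPM at day 0, 21.7 and 22 at day 4, 26.1 and 27.2 in CM, and 23.2 and 25.9 in CM without GF. The shBeclin1 libraries were lower without overlap at day 0, day 4 and in CM, and the groups overlapped without GF. It fell with log2 fold changes of -0.37 ± 0.08 (SE, adjusted p = 0.00225) at day 0, -0.51 ± 0.09 (SE, adjusted p = 4.36e-05) at day 4 and -0.38 ± 0.09 (SE, adjusted p = 0.000421) in CM, and the interval without GF was -0.17 to 0.19. Leaving out replicate 2 of shBeclin1 at day 0 lost that call (adjusted p = 0.0729).

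Irf9 is the DNA-binding partner of Stat2. The shNT libraries gave 14.6 and 14 CPM at day 0, 10.6 and 8.07 at day 4, 9.89 and 10.4 in CM, and 7.32 and 8.71 in CM without GF. The shBeclin1 libraries gave 15.5 and 16.7 CPM at day 0, 7.77 and 9.79 at day 4, 7.85 and 9.42 in CM, and 11.9 and 11.9 in CM without GF. The groups overlapped at day 4 and lay apart at the other points, with shBeclin1 higher at day 0 and without GF and lower in CM. The change passed the test without GF, with a log2 fold change of 0.57 ± 0.15 (SE, adjusted p = 0.00146). The intervals at day 0, day 4 and in CM were -0.11 to 0.45, -0.40 to 0.24 and -0.53 to 0.08. Irf7, which amplifies type I interferon production, was near the floor. Its shNT libraries held 0.256 and 0.314 CPM at day 0, 0.209 and 0.202 at day 4, 0.263 and 0.661 in CM, and 0.124 and 0.115 in CM without GF, and its shBeclin1 libraries held 0.0651 and 0.449 CPM at day 0, 0.133 and 0 at day 4, 0.386 and 0.176 in CM, and 0.171 and 0.253 in CM without GF. These levels stand for 2 to 17 counts per group, and no test was made.

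Usp18, a protease that removes the ubiquitin-like protein Isg15 and damps signalling at the interferon receptor, went up with knockdown at day 4 and down in CM. With the control hairpin it stood at 0.0639 and 0 CPM at day 0, 0.0697 and 0.606 at day 4, 11 and 9.55 in CM, and 0.372 and 0.344 in CM without GF. With the Beclin1 hairpin it stood at 0 and 0 CPM at day 0, 2.19 and 2.45 at day 4, 0.708 and 0.702 in CM, and 0.627 and 0.606 in CM without GF. CM shNT stood apart from every other group, and at day 4 both shBeclin1 libraries were above both shNT libraries. The log2 fold change was 2.74 ± 0.45 (SE, adjusted p = 1.33e-05) at day 4, from 10 counts in shNT to 77 in shBeclin1, and -3.85 ± 0.31 (SE, adjusted p = 4.76e-13) in CM, or 14.5-fold lower. The effect in CM minus that at day 4 was -6.59 ± 0.53 (SE, adjusted p = 2.41e-12) on the log2 scale. Without GF the interval of its change was -0.33 to 1.88. Isg15 itself held 0 to 27 counts per group and was called at no point, with an interval in CM of -2.23 to 0.22.

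Among the 17 antiviral effectors tested, 3 rose and 1 fell with knockdown at day 0, 3 rose and 5 fell at day 4, 2 rose and 10 fell in CM, and 3 rose and 5 fell without GF. The shares of all genes tested that rose and fell were 5.79% and 7.55% at day 0, 10.7% and 10.1% at day 4, 19.2% and 19.1% in CM, and 27.3% for either direction without GF. Rsad2, which codes for viperin, an enzyme that makes a chain-terminating nucleotide, was seen mainly in CM shNT cells. In shNT libraries it was 0.0639 and 0.126 CPM at day 0, 0.767 and 0.875 at day 4, 21.9 and 22.8 in CM, and 0.248 and 0.115 in CM without GF. Under knockdown the values were 0.195 and 0.0641 CPM at day 0, 0.266 and 0.0557 at day 4, 3.86 and 2.63 in CM, and 0.399 and 0.404 in CM without GF. Both CM shNT libraries were above 21 CPM and the CM shBeclin1 libraries below 4, and no library of another group reached 1 CPM. It fell with knockdown in CM, with a log2 fold change of -2.79 ± 0.20 (SE, adjusted p = 1.96e-14), or 6.9-fold, and at day 4, with one of -2.38 ± 0.61 (SE, adjusted p = 0.00388). The day 4 change rested on 24 and 5 counts and was lost without replicate 2 of shBeclin1 (adjusted p = 0.128). Without GF its interval was -0.20 to 2.47.

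**Figure D4:**
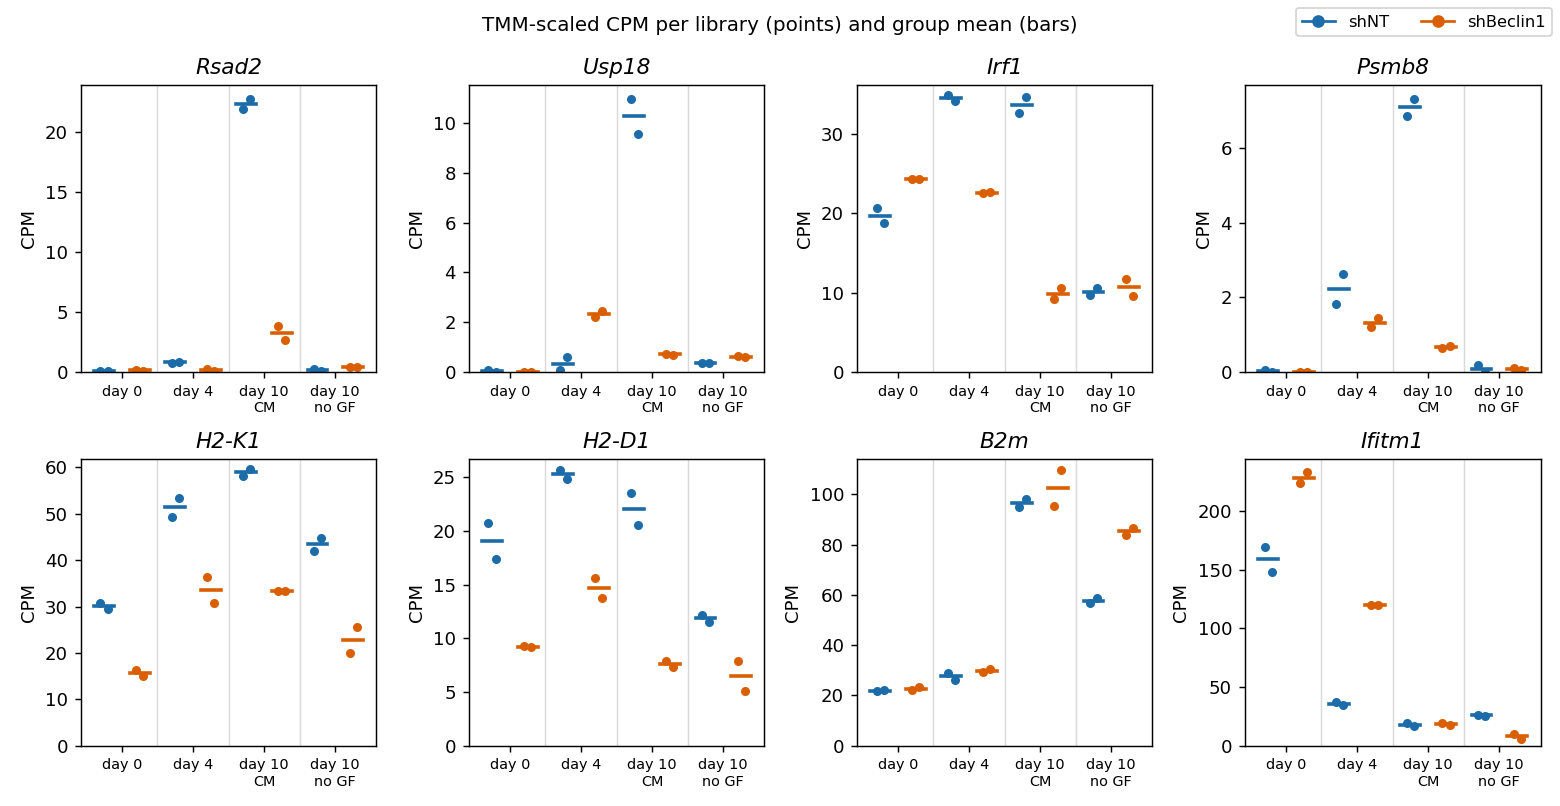
TMM-scaled CPM of 8 members in each library (points) with the mean of each group of 2 (bars), shNT in blue and shBeclin1 in orange, on axes from 0. Rsad2, Usp18 and Psmb8 had their highest level in CM shNT, H2-K1 and H2-D1 were lower with shBeclin1 at each point, and B2m was not.

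Ifi44, an interferon target of unclear function, and Ifit1, which binds foreign RNA at its cap, had most of their counts in CM shNT cells. Ifi44 was 4.86 and 4.99 CPM in CM shNT and 0.0644 and 0.0585 in CM shBeclin1, from 194 and 2 counts, a ratio of 80.1 with a 95% counting interval of 21.9 to 666. Without GF it was 0.434 and 0.687 in shNT, from 19 counts, and it had no count in shBeclin1, at least 7.04-fold lower with 3 counts set as the group's floor. Ifit1 had 43 counts in CM shNT, at 0.963 and 1.26 CPM, and 0 in CM shBeclin1, which was at least 11.8-fold lower. The adjusted p in CM was 3.49e-11 for Ifi44 and 6.91e-06 for Ifit1. At day 0 and day 4 Ifi44 and Ifit1 held 0 to 3 counts per group.

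Ifit2, a relative of Ifit1, did not share that pattern. The shNT libraries gave 2.11 and 1.44 CPM at day 0, 17.8 and 19.1 at day 4, 14.4 and 13.6 in CM, and 19.9 and 17.9 in CM without GF. The values with shBeclin1 were 1.76 and 1.41 CPM at day 0, 10.3 and 12.6 at day 4, 20.1 and 21.1 in CM, and 25.3 and 20.7 in CM without GF. The groups overlapped at day 0, and shBeclin1 was below shNT at day 4 and above it in both day 10 cultures, with no overlap. Knockdown gave a log2 fold change of -0.68 ± 0.13 (SE, adjusted p = 0.000192) at day 4, 0.55 ± 0.13 (SE, adjusted p = 0.000493) in CM and 0.28 ± 0.12 (SE, adjusted p = 0.0454) without GF. The last was lost in 3 of 4 fits that left out 1 library: without replicate 1 of shNT (adjusted p = 0.0553), its replicate 2 (0.301) or replicate 1 of shBeclin1 (0.447); it was also lost under DESeq2 (0.16), under total counts (0.0656) and with the groups fitted alone (0.0554). Ifit3 fell in CM, with a log2 fold change of -1.37 ± 0.51 (SE, adjusted p = 0.0328), from 1.44 and 0.721 CPM to 0.322 and 0.527. That call was lost without replicate 1 of shNT (adjusted p = 0.48), replicate 1 of shBeclin1 (0.229) or replicate 2 of shBeclin1 (0.0696), under DESeq2 (0.335) and with no filter on low counts (0.0564). Ifit and Oasl genes belong to families of related genes, and the sources do not say how reads shared between relatives were counted.

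Bst2 codes for tetherin, which holds budding virus at the cell surface. With the control hairpin it stood at 19.5 and 17.4 CPM at day 0, 52.1 and 48.2 at day 4, 24.2 and 25.2 in CM, and 7.69 and 8.25 in CM without GF. In shBeclin1 libraries it was 16.1 and 14.6 CPM at day 0, 25.2 and 20.8 at day 4, 11.9 and 11.7 in CM, and 6.66 and 5.21 in CM without GF. Day 4 shNT was the highest group, and the shBeclin1 libraries were below those of shNT at all points with no overlap. It fell with log2 fold changes of -1.13 ± 0.10 (SE, adjusted p = 8.1e-11) at day 4, -1.06 ± 0.12 (SE, adjusted p = 1.47e-09) in CM and -0.43 ± 0.15 (SE, adjusted p = 0.0145) without GF, and its interval at day 0 was -0.51 to -0.02. The call without GF did not hold without replicate 2 of shNT (adjusted p = 0.0939) or replicate 2 of shBeclin1 (0.249), under DESeq2 (0.0523) or with these groups fitted alone (0.0531).

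The Ifitm genes code for small membrane proteins that block virus entry, and Ifitm1 and Ifitm3 also mark early germ cells in the mouse. Per kilobase of exon they had the highest levels of all 37 genes in day 0 shNT cells, from 102.3 CPM per kb for Ifitm3 to 206 for Ifitm2. Ifitm1 in shNT libraries was 169 and 149 CPM at day 0, 37.2 and 34.4 at day 4, 19 and 16.9 in CM, and 26.6 and 25.3 in CM without GF. The shBeclin1 libraries gave 224 and 233 CPM at day 0, 120.1 and 119.8 at day 4, 19.3 and 17.6 in CM, and 10.4 and 5.66 in CM without GF. The shBeclin1 libraries were higher at day 0 and day 4, overlapped in CM, and were lower without GF. Its log2 fold change was 0.53 ± 0.11 (SE, adjusted p = 0.00422) at day 0, 1.74 ± 0.12 (SE, adjusted p = 2.16e-08) at day 4 and -1.71 ± 0.17 (SE, adjusted p = 2.3e-07) without GF, and its interval in CM was -0.30 to 0.36. Leaving out replicate 2 of shBeclin1 at day 0 lost the day 0 call (adjusted p = 0.0643).

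Ifitm3 in shNT libraries was 72.2 and 66.5 CPM at day 0, 27.9 and 28.9 at day 4, 39.7 and 39.2 in CM, and 22.7 and 24.1 in CM without GF. With the Beclin1 hairpin it stood at 111 and 106 CPM at day 0, 39.6 and 38.2 at day 4, 21.9 and 22.4 in CM, and 18 and 14.1 in CM without GF. It was higher with shBeclin1 at day 0 and day 4 and lower at day 10 in either culture, with no overlap. The log2 fold changes were 0.65 ± 0.08 (SE, adjusted p = 3.05e-07), 0.45 ± 0.09 (SE, adjusted p = 0.000227), -0.83 ± 0.09 (SE, adjusted p = 9.52e-10) and -0.55 ± 0.10 (SE, adjusted p = 1.23e-05) at day 0, day 4, in CM and without GF. Ifitm2 was 142 and 128 CPM at day 0, 62.6 and 65.6 at day 4, 90.5 and 85.8 in CM, and 93.9 and 92.4 in CM without GF with shNT. Under knockdown the values were 129 and 119.6 CPM at day 0, 81.3 and 71.8 at day 4, 114 and 103 in CM, and 74.5 and 68.4 in CM without GF. Its changes were small, with 0.25 ± 0.08 (SE, adjusted p = 0.0141) at day 4, 0.29 ± 0.07 (SE, adjusted p = 0.00104) in CM and -0.38 ± 0.07 (SE, adjusted p = 2.94e-05) without GF. The day 4 rise was lost without replicate 1 of shNT (adjusted p = 0.149), without replicate 1 of shBeclin1 (0.277) and under total counts (0.0671), and the rise in CM was lost without replicate 1 of shBeclin1 (0.0522). Of the Ifitm2 exon bases, 40.9% are shared with the predicted gene Gm45717 on the same strand, and the family members are similar in sequence, so the split of reads between them is uncertain.

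Xaf1, whose protein counters an inhibitor of apoptosis, was highest in embryonic stem cells. In shNT libraries it was 29.3 and 25.4 CPM at day 0, 0.348 and 0.538 at day 4, 5.87 and 4.99 in CM, and 2.05 and 1.37 in CM without GF. The values with shBeclin1 were 17.4 and 17.6 CPM at day 0, 0.266 and 0.0557 at day 4, 1.87 and 1.99 in CM, and 1.54 and 0.859 in CM without GF. It was lower with shBeclin1 without overlap at day 0, day 4 and in CM, and the day 4 libraries were all under 1 CPM. The log2 fold change was -0.64 ± 0.15 (SE, adjusted p = 0.00322) at day 0 and -1.50 ± 0.23 (SE, adjusted p = 1.96e-06) in CM. The day 0 call was lost without replicate 1 of shNT (adjusted p = 0.0533), replicate 1 of shBeclin1 (0.0512) or replicate 2 of shBeclin1 (0.0513). The interval at day 4 was -2.97 to -0.05, and that without GF was -1.17 to 0.12.

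Parp9 and Parp14 code for ADP-ribosyltransferases that act on the interferon response. Parp9 in shNT libraries was 7.6 and 9.73 CPM at day 0, 20.9 and 18.7 at day 4, 17.2 and 17.1 in CM, and 5.77 and 6.76 in CM without GF. In shBeclin1 libraries it was 12.7 and 13.1 CPM at day 0, 11 and 10.9 at day 4, 10.3 and 9.48 in CM, and 11.1 and 9.6 in CM without GF. It was higher with shBeclin1 at day 0 and without GF, and lower at day 4 and in CM, with no overlap at any point. The log2 fold changes were 0.57 ± 0.14 (SE, adjusted p = 0.00543), -0.86 ± 0.13 (SE, adjusted p = 3.85e-06), -0.80 ± 0.13 (SE, adjusted p = 4.81e-06) and 0.71 ± 0.15 (SE, adjusted p = 9.73e-05), in the order of day 0, day 4, CM and CM without GF. At day 0 the call was lost without replicate 1 of shNT (adjusted p = 0.118) or replicate 2 of shBeclin1 (0.0665). Of its exon bases, 9.4% lie opposite Dtx3l. Parp14 was 7.67 and 9.29 CPM at day 0, 4.32 and 4.51 at day 4, 3.46 and 3.66 in CM, and 0.372 and 0.745 in CM without GF with shNT. The shBeclin1 libraries gave 9.57 and 7.05 CPM at day 0, 1.53 and 2.67 at day 4, 0.837 and 1.11 in CM, and 1.03 and 0.859 in CM without GF. It fell with log2 fold changes of -1.05 ± 0.27 (SE, adjusted p = 0.00346) at day 4 and -1.85 ± 0.31 (SE, adjusted p = 5.58e-06) in CM, where the groups did not overlap, and the day 4 call was lost without replicate 1 of shBeclin1 (adjusted p = 0.112). The intervals at day 0 and without GF were -0.44 to 0.38 and -0.17 to 1.62.

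The other effectors were scarce. Oasl2, a relative of the oligoadenylate synthetases, fell in CM, with a log2 fold change of -1.49 ± 0.35 (SE, adjusted p = 0.000707), from 2.5 and 2.34 CPM to 0.966 and 0.761, a call that DESeq2 did not make (adjusted p = 0.0582). Ifi35, whose protein binds the related factor Nmi, rose without GF, with a log2 fold change of 1.67 ± 0.37 (SE, adjusted p = 0.00023), from 0.496 and 0.974 CPM to 2.11 and 2.63. Mx2, Oasl1 and Rtp4 passed at no point, and Mx1, a GTPase that blocks influenza virus, held 0 to 10 counts per group. The interval of Rtp4 in CM was -2.27 to -0.07.

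The heavy chains fell at every point. H2-K1 lies at chr17:33996017-34000347 and H2-D1 at chr17:35262730-35267499 on GRCm38, both in the major histocompatibility complex together with Tap1, Tap2, Tapbp, Psmb8 and Psmb9. H2-K1 in shNT libraries was 30.7 and 29.5 CPM at day 0, 49.3 and 53.4 at day 4, 58.2 and 59.7 in CM, and 42 and 44.8 in CM without GF. With the Beclin1 hairpin it stood at 16.4 and 14.9 CPM at day 0, 36.5 and 30.8 at day 4, 33.3 and 33.4 in CM, and 19.9 and 25.6 in CM without GF. No shBeclin1 library reached the lower shNT library of its own point. Knockdown gave a log2 fold change of -0.94 ± 0.11 (SE, adjusted p = 1.76e-07) at day 0, -0.62 ± 0.09 (SE, adjusted p = 4.03e-06) at day 4, -0.82 ± 0.09 (SE, adjusted p = 2.01e-09) in CM and -0.93 ± 0.10 (SE, adjusted p = 2.38e-10) without GF. The 3 differences between points that were tested did not pass, with intervals of 0.03 to 0.62 for day 4 minus day 0, -0.47 to 0.06 for CM minus day 4 and -0.17 to 0.38 for CM minus CM without GF.

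H2-D1 in shNT libraries was 20.8 and 17.4 CPM at day 0, 25.7 and 24.9 at day 4, 23.5 and 20.5 in CM, and 12.2 and 11.6 in CM without GF. Under knockdown the values were 9.31 and 9.17 CPM at day 0, 15.7 and 13.8 at day 4, 7.85 and 7.37 in CM, and 7.86 and 5.1 in CM without GF. The order was the same as for H2-K1, with shBeclin1 lower and no overlap at each point. The log2 fold change was -1.05 ± 0.14 (SE, adjusted p = 3.37e-06) at day 0, -0.78 ± 0.13 (SE, adjusted p = 1.64e-05) at day 4, -1.54 ± 0.14 (SE, adjusted p = 1.65e-11) in CM and -0.89 ± 0.15 (SE, adjusted p = 7.07e-06) without GF. On the log2 scale the effect in CM minus that at day 4 was -0.76 ± 0.19 (SE, adjusted p = 0.00305), and minus that without GF it was -0.65 ± 0.21 (SE, adjusted p = 0.0154). Per kilobase of exon, H2-K1 stood at 10.2 CPM per kb and H2-D1 at 7.41 in day 0 shNT cells. The class I genes are close copies of each other, so reads may be split between them in ways that the counts do not show.

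B2m, the light chain that every class I molecule needs, did not follow the heavy chains. The shNT libraries gave 21.6 and 22.1 CPM at day 0, 29.1 and 26.3 at day 4, 95.1 and 98.3 in CM, and 56.6 and 58.6 in CM without GF. The values with shBeclin1 were 22 and 23.2 CPM at day 0, 29.4 and 30.4 at day 4, 95.4 and 109.7 in CM, and 84 and 86.7 in CM without GF. The groups overlapped at day 0 and in CM, and both shBeclin1 libraries were higher at day 4, by little, and without GF. The intervals of the log2 fold change were -0.14 to 0.24 at day 0, -0.07 to 0.29 at day 4 and -0.06 to 0.23 in CM. Without GF it rose with a log2 fold change of 0.57 ± 0.07 (SE, adjusted p = 2.37e-08), and the difference from the effect in CM passed its test (adjusted p = 0.000238). The direction of the B2m differences at day 0 and in CM, which were not called, turned when libraries were scaled by total counts.

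Of the genes of peptide supply and loading, 0 of 5 rose and 1 fell with knockdown at day 0, 0 rose and 1 fell at day 4, 0 rose and 4 fell in CM, and 1 rose and 1 fell without GF. The corresponding shares of all genes tested were 5.79% and 7.55%, 10.7% and 10.1%, 19.2% and 19.1%, and 27.3% and 27.3%. Tapbp, which codes for tapasin, was 23.7 and 19.8 CPM at day 0, 34.4 and 35.3 at day 4, 48.2 and 45.8 in CM, and 14.1 and 13.6 in CM without GF in shNT libraries. In shBeclin1 libraries it was 22.8 and 21.1 CPM at day 0, 22.5 and 23.2 at day 4, 24 and 27.7 in CM, and 19.3 and 21.7 in CM without GF. The groups overlapped at day 0, and the shBeclin1 libraries were lower at day 4 and in CM and higher without GF. Knockdown gave a log2 fold change of -0.61 ± 0.10 (SE, adjusted p = 1.37e-05) at day 4, -0.86 ± 0.09 (SE, adjusted p = 1.36e-09) in CM and 0.57 ± 0.11 (SE, adjusted p = 3.2e-05) without GF, and its interval at day 0 was -0.20 to 0.23. Of the Tapbp exon bases, 29.0% are shared with Zbtb22 or Gm19412.

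Tap1 and Tap2 form the peptide transporter. Tap1 was 2.75 and 2.07 CPM at day 0, 4.39 and 3.5 at day 4, 14.3 and 15.6 in CM, and 8.25 and 8.36 in CM without GF with shNT. The shBeclin1 libraries gave 1.63 and 1.73 CPM at day 0, 4.45 and 5.18 at day 4, 10.6 and 13.8 in CM, and 4.16 and 4.65 in CM without GF. It was lower with shBeclin1 in day 10 cells of either culture without overlap, and the fall passed without GF, at -0.91 ± 0.18 (SE, adjusted p = 4.81e-05), while the interval in CM was -0.59 to 0.02. Tap2 was 1.21 and 1.32 CPM at day 0, 2.3 and 2.69 at day 4, 10.4 and 9.37 in CM, and 1.92 and 1.66 in CM without GF with shNT. With the Beclin1 hairpin it stood at 0.521 and 0.834 CPM at day 0, 1.79 and 2.06 at day 4, 3.41 and 4.15 in CM, and 1.42 and 1.52 in CM without GF. CM shNT was its highest group, and it fell there with a log2 fold change of -1.38 ± 0.20 (SE, adjusted p = 4.6e-07). The intervals of Tap2 at the other points were -1.67 to -0.12, -0.92 to 0.19 and -0.87 to 0.31, for day 0, day 4 and CM without GF. Of the Tap2 exon bases, 18.5% lie opposite predicted genes.

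Psmb8 and Psmb9 are catalytic subunits that replace Psmb5 and Psmb6 when a proteasome becomes an immunoproteasome. Psmb8 was 0.0639 and 0 CPM at day 0, 1.81 and 2.62 at day 4, 6.87 and 7.33 in CM, and 0.186 and 0 in CM without GF with shNT. Under knockdown the values were 0 and 0 CPM at day 0, 1.2 and 1.45 at day 4, 0.644 and 0.702 in CM, and 0.114 and 0.0505 in CM without GF. CM shNT stood above every other group, and shBeclin1 was lower at day 4 and in CM without overlap. Psmb8 fell in CM, with a log2 fold change of -3.38 ± 0.33 (SE, adjusted p = 9.87e-11), or 10.4-fold, and its interval at day 4 was -1.44 to -0.03. Of its exon bases, 14.7% lie opposite Gm20496. Without GF each group held 3 counts, and no fold is given. Psmb9 fell in CM, with a log2 fold change of -2.04 ± 0.38 (SE, adjusted p = 2.84e-05), from 2.63 and 3 CPM to 0.644 and 0.702, and at day 0, with one of -1.40 ± 0.44 (SE, adjusted p = 0.0296), from 1.53 and 1.57 to 0.456 and 0.705. The day 0 call was lost in every fit that left out 1 library: without replicate 1 of shNT (adjusted p = 0.0811), its replicate 2 (0.0675), replicate 1 of shBeclin1 (0.236) or its replicate 2 (0.0857), and with the day 0 groups fitted alone (0.0516).

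The constitutive partners were more abundant. Per kilobase of exon, Psmb8 made up 9.73% of the Psmb5 level in CM shNT, 1.20% in day 4 shNT and at most 0.843% in the other groups. Psmb9 made up 1.39% of the Psmb6 level in CM shNT and at most 0.620% elsewhere. The lengths merge the exons of all annotated transcripts, with 3.381 kb for Psmb8 and 0.899 kb for Psmb5. They are 3.66 kb for Psmb9 and 1.872 kb for Psmb6. The size of these shares depends on that choice, and a shorter length for Psmb8 or Psmb9 would raise them. Psmb5 passed at no point, with an interval in CM of -0.18 to 0.44. Psmb6 and Psmb7 rose at day 4, with log2 fold changes of 0.26 ± 0.07 (SE, adjusted p = 0.00282) and 0.23 ± 0.07 (SE, adjusted p = 0.00985). Without GF they fell, with -0.16 ± 0.07 (SE, adjusted p = 0.0485, just under the threshold) and -0.47 ± 0.07 (SE, adjusted p = 2.73e-07).

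Nlrc5, the transactivator of class I genes, was low in every library. With the control hairpin it stood at 0.447 and 0.251 CPM at day 0, 1.46 and 0.875 at day 4, 0.219 and 0.781 in CM, and 0.124 and 0.115 in CM without GF. The values with shBeclin1 were 0.13 and 0.257 CPM at day 0, 1.59 and 1 at day 4, 0.257 and 0.293 in CM, and 0.057 and 0.101 in CM without GF. The groups overlapped at day 0, day 4 and in CM, and the highest values were those of day 4. No difference passed, with intervals of -2.47 to 0.82 at day 0, -0.77 to 1.04 at day 4 and -2.10 to 0.63 in CM. Each group held 3 to 42 counts of Nlrc5, so smaller changes were not detectable at this depth.

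Testing the differences between knockdown effects showed where they changed. From day 0 to day 4, the effect became lower for 6 members and higher for 2, against 6.89% and 7.93% of all genes tested. From day 4 to CM, it became lower for 10 and higher for 1 (13.9% and 12.2%). In CM against CM without GF, it was lower for 19 members and higher for 3 (18.2% and 16.2%). Ifit1 is counted among the lower effects in both comparisons with CM, and Rtp4 in the last. Both genes were tested only through CM shNT, so the filter on low counts favoured these lower effects, which add no separate support. The 3 that were higher in CM were Ifitm1, Ifitm2 and Tap1. The median difference over tested members was -0.20, -0.53 and -0.98 in these comparisons, beside 0.03, -0.05 and -0.01 over all genes tested. DESeq2 called 7 of the differences between CM and day 4 where edgeR called 11. Each of these comparisons shares libraries with the comparisons at single points. The knockdown of Becn1 itself was weaker in CM than at day 4, by 0.32 ± 0.11 (SE, adjusted p = 0.0277) on the log2 scale. Its difference was 0.19 ± 0.11 for day 4 minus day 0 and -0.19 ± 0.11 for CM minus CM without GF, and neither passed. The part of the unequal knockdown in the members' differences was not tested.

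From day 0 to day 4, 20 members rose and 9 fell in shNT cells (34.3% and 32.6% of all genes tested), and 13 rose and 11 fell in shBeclin1 cells (35.5% and 32.3%). The members' median log2 fold change was 0.77 in shNT cells and 0.40 in shBeclin1 cells, beside 0.00 and 0.02 over all genes. The median in shBeclin1 cells was 0.33 with the 5 members that had no count in a group set to their bounds. In shNT cells the log2 fold change was 3.38 ± 0.19 for Ifit2, 1.44 ± 0.11 for Bst2, 0.77 ± 0.10 for H2-K1, -5.92 ± 0.27 for Xaf1 and -2.15 ± 0.12 for Ifitm1. Psmb8 went from 1 count to 65, a ratio of 70.3 with a counting interval of 12.2 to 2818. All 3 class I chains rose in either line. Over the same days all 5 mesoderm markers rose and 5 of 6 pluripotency markers fell in either line, and their part in the changes was not tested. Oasl1 went from 68 counts to 2 in shNT cells, a ratio of 31.4 (8.38 to 265). It passed the filter on low counts only through its day 0 libraries. The filter thus favoured a fall of Oasl1 in either line, and its fall adds no separate support.

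From day 4 to CM, 23 members rose and 5 fell in shNT cells (36.8% and 33.2% of all genes tested), and 13 rose and 10 fell in shBeclin1 cells (37.3% and 35.1%). The median was 1.44 in shNT cells and 0.22 in shBeclin1 cells, beside 0.07 and 0.02 over all genes. Ifit1, Ifi44, Ifit3, Isg15 and Rtp4 were tested only through CM shNT. The filter thus favoured a rise of these genes in shNT cells, which adds no separate support to that count and median. The log2 fold change of Rsad2 was 4.75 ± 0.26 in shNT cells and 4.35 ± 0.45 in shBeclin1 cells, and that of Usp18 was 4.88 ± 0.36 and -1.71 ± 0.37. That of B2m was 1.80 ± 0.08 and 1.78 ± 0.08, and that of Tap1 was 1.92 ± 0.18 and 1.34 ± 0.17. Irf1 fell in shBeclin1 cells, with -1.19 ± 0.12, and its interval in shNT cells was -0.23 to 0.16. Over these days all 8 endothelial markers and 6 of 7 fibroblast markers rose in either line. In shBeclin1 cells all 8 cardiomyocyte markers and 5 of 6 tested blood and macrophage markers rose as well, against 1 of each in shNT cells. The part of these cell markers in the changes was not tested. Under total counts the median of all genes moved by -0.15 between day 0 and day 4 in either line and by 0.20 and 0.16 between day 4 and CM in shNT and shBeclin1 cells, and no called member changed sign.

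Between the CM and CM without GF cultures more members were called in shNT cells than in shBeclin1 cells. In shNT cells 28 members were higher in CM and 2 were lower (26.9% and 25.9% of all genes tested), with a median of 1.68 beside 0.00 over all genes. The filter on low counts favoured higher levels of Ifit1, Ifi44, Ifit3, Isg15 and Rtp4 in CM shNT. In this count and median those genes add no separate support. In shBeclin1 cells 13 were higher and 2 were lower (20.3% and 16.7%), with a median of 0.46 beside 0.00. In shNT cells the log2 differences were 6.91 ± 0.32 for Rsad2, 4.82 ± 0.34 for Usp18, 1.73 ± 0.11 for Irf1, 1.63 ± 0.12 for Bst2 and 2.46 ± 0.22 for Tap2. Psmb8 held 279 counts in CM and 3 without GF, a ratio of 79.1 with a counting interval of 26.8 to 386. The members that were lower in CM were Ifit2 and Ifitm1. In shBeclin1 cells the log2 differences were 2.98 ± 0.36 for Rsad2, 1.47 ± 0.17 for Tap1 and -0.46 ± 0.15 for Irf9, and Ifit1 had 13 counts without GF and none in CM, at least 3.79-fold lower. All 8 endothelial markers were higher in CM with either hairpin, with sums of 789 to 806 against 70.5 to 72.9 CPM in shNT cells, and their part was not tested. The CM shNT libraries also enter the knockdown comparison in CM, so these differences and the falls with knockdown share them.

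Upstream of the members, interferon transcripts were at or near 0. The 21 interferon ligand genes together held 0 to 3 counts in each library, and Ifnb1 held none, so that up to 0.131 to 0.209 CPM of it could have gone unseen. The receptor chains were present, with Ifnar1 at 36.6 and 34.6 CPM in day 0 shNT cells and 138 and 136 in CM shNT cells, and Ifnar2 at 15 and 12.2 and 30.7 and 31.4. Ifnar1 passed the knockdown test at no point, and Ifnar2 fell at day 0, with a log2 fold change of -0.44 ± 0.13 (SE, adjusted p = 0.0153), and rose without GF, with one of 0.49 ± 0.10 (SE, adjusted p = 0.000107). Mavs, the adaptor of the RNA sensors, and Irf3, a factor it activates, stayed between 12.9 and 26.8 CPM, and Mavs rose in CM, with a log2 fold change of 0.34 ± 0.11 (SE, adjusted p = 0.0132). Tlr3, an endosomal sensor of double-stranded RNA, fell at day 4, with a log2 fold change of -1.0 ± 0.32 (SE, adjusted p = 0.023).

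Over the list of 14 receptor and JAK-STAT genes, all of them tested, the calls with knockdown were 0 up and 5 down at day 0, 1 up and 2 down at day 4, 2 up and 5 down in CM, and 7 up and 1 down without GF. As background for this and the other pathway lists, 5.79% of all genes tested rose and 7.55% fell at day 0, 10.7% and 10.1% at day 4, 19.2% and 19.1% in CM, and 27.3% in each direction without GF. Jak1 and Stat3, a kinase and a factor shared with other cytokines, were among those that fell at day 0, with log2 fold changes of -0.87 ± 0.07 and -0.40 ± 0.07, and rose without GF, with 1.22 ± 0.07 and 1.34 ± 0.07. Ifngr2, a chain of the interferon gamma receptor, rose at day 4, in CM and without GF, with log2 fold changes of 0.43 ± 0.14, 0.52 ± 0.09 and 1.46 ± 0.10. Of the nucleic acid sensing genes, 17 of 19 were tested, with 0 up and 1 down at day 0, 0 and 3 at day 4, 3 and 5 in CM, and 5 and 1 without GF. Irf5, a factor downstream of Toll-like receptors, went from 0.438 and 0.541 CPM to 18.9 and 21 in CM and from 0.248 and 0.172 to 43.7 and 40.4 without GF. The adjusted p of Irf5 was 1.26e-21 and 2.01e-25, and 14.2% of its exon bases lie opposite Tnpo3.

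The list of 51 other interferon response genes, of which 42 were tested, was called mostly lower in CM and mostly higher without GF. With knockdown, 3 rose and 23 fell in CM, and 25 rose and 6 fell without GF; at day 0 the counts were 2 and 3, and at day 4 they were 1 and 10. The medians were 0.07, -0.39, -0.65 and 0.71 at day 0, day 4, in CM and without GF. The guanylate-binding protein genes Gbp2 and Gbp7 fell in CM, with log2 fold changes of -2.32 ± 0.21 (SE, adjusted p = 1.19e-11) and -1.83 ± 0.19 (SE, adjusted p = 2.87e-10). The exonuclease gene Isg20 fell there too, with one of -3.39 ± 0.37 (SE, adjusted p = 1.18e-09). Without GF the rises included Uba7, the activating enzyme for Isg15, at 2.67 ± 0.21 (SE, adjusted p = 1.86e-13), and Parp12, at 1.71 ± 0.14 (SE, adjusted p = 4.17e-13). Iigp1, an immunity-related GTPase, went the same way in both cultures, from 0.263 and 0.18 CPM to 6.5 and 7.72 in CM and from 0.186 and 0.229 to 7.12 and 4.14 without GF (adjusted p = 3.18e-13 and 4.94e-12). Zc3hav1, which codes for the antiviral protein ZAP, was the member of that list that rose at day 4, with a log2 fold change of 1.06 ± 0.08 (SE, adjusted p = 1.6e-12).

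Of 24 other MHC class I and loading genes, 22 were tested, with 0 up and 3 down at day 0, 1 and 6 at day 4, 1 and 8 in CM, and 8 and 5 without GF. The class I genes H2-Q4 and H2-T22 fell at day 4, with log2 fold changes of -0.85 ± 0.14 and -0.74 ± 0.15, and in CM, with -1.12 ± 0.14 and -0.85 ± 0.14. The proteasome activator gene Psme1 fell at day 4, with a log2 fold change of -0.48 ± 0.07 (SE, adjusted p = 3.46e-06), and rose without GF, with one of 0.85 ± 0.07 (SE, adjusted p = 1.95e-12). Erap1, which trims peptides, fell in CM, with a log2 fold change of -0.94 ± 0.13, and rose without GF, with one of 0.93 ± 0.14. Of 10 MHC class II genes, 6 were tested and none were called at day 0 or day 4; 1 rose and 2 fell in CM, and 2 rose and 1 fell without GF.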

How the data were processed

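The authors deposited a table of read counts per gene, with 16 columns of libraries and 54052 entries, and no other per-sample values were used. Per the labels' protocols, RNA was extracted with TRIzol, depleted of ribosomal RNA, made into stranded libraries and sequenced in pairs on a HiSeq X 10; a label for the molecule reads polyA RNA. Per the submitters' processing notes, Trimmomatic 0.36, SAMtools and featureCounts of Subread 1.5.1 were used with the mm10 build. The aligner, and whether counting was by strand, are not stated. Libraries held 14967744 to 21422980 counts, with TMM factors of 0.884 to 1.08, and counting error is large for members below about 1 CPM.

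The deposited counts were tested with edgeR 4.0.16 in R 4.3.3 (TMM, filterByExpr, quasi-likelihood F test) in 1 fit of all 16 libraries with 8 groups, which left 19141 entries. Benjamini-Hochberg adjustment was over all of them, and SE is the log2 fold change over the square root of F. Replicates differed unequally. Chi-square per degree of freedom between the 2 libraries was 7.66 in day 0 shNT and 7.44 in CM without GF shBeclin1. In the other groups it was 1.40 to 2.91. The fit shares its estimate of spread over the groups, so p-values of comparisons with those 2 groups may be too small. Intervals of log2 fold changes are 95% and not adjusted for the number of genes; intervals of count ratios and the floor of 3 counts cover counting error only. CPM are TMM-scaled, and CPM per kb uses merged exons of the GRCm38 annotation. DESeq2 1.42.0, other scalings and filters, groups fitted alone, summed repeated symbols, a replicate block and leaving out each library were alternatives. Replicate numbers in the labels were not taken to pair libraries, since deviations of libraries with the same number correlated between -0.0215 and 0.0219. The members, lists and tests were chosen with earlier results of these data known. Library values are given for members called in a knockdown comparison with a group mean of at least 5 CPM and for Irf7 and Nlrc5. From the pathway lists, a set of genes was named whatever its result (among them Ifnb1, Ifnar1, Ifnar2, Irf3, Mavs, Tlr3 and Psmb5 to Psmb7), and the 4 calls with the smallest adjusted p per list and comparison could be named. Of those calls only some are described, chosen after their values were seen, and 1 gene is not reported here. Promoters were those of RefSeq on GRCm38.p6, searched on both strands.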

Additional observations from a re-analysis of the deposited data

Results flagged for a closer look

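The knockdown effects of the genes below differed between points by the interaction term of the edgeR fit, with an adjusted p under 0.05 over all genes tested. All values are differences of log2 fold changes, shBeclin1 against shNT, with n = 2 per group. Between day 0 and day 4 the knockdown effect (day 4 minus day 0) differed by -2.05 for Ddx58, -1.43 for Parp9, -1.01 for Parp14, -0.91 for Irf1, -0.86 for Bst2, -0.62 for Tapbp, 0.37 for Ifitm2 and 1.22 for Ifitm1. Between day 4 and CM (CM minus day 4) the effect differed by -7.58 for Ifit1, -6.59 for Usp18, -2.64 for Psmb8, -1.77 for Psmb9, -1.72 for Ifitm1, -1.66 for Ifih1, -1.28 for Ifitm3, -1.15 for Irf1, -1.01 for Tap2, -0.76 for H2-D1 and 1.23 for Ifit2. Between the day 10 cultures (CM minus CM without GF) the effect differed by -8.39 for Ifit1, -4.63 for Usp18, -3.92 for Rsad2, -2.65 for Rtp4, -2.57 for Parp14, -2.24 for Oasl2, -1.97 for Ifih1, -1.89 for Ifi35, -1.83 for Irf1, -1.51 for Parp9 and -1.43 for Tapbp. There it also differed by -1.23 for Trim25, -1.10 for Tap2, -0.92 for Ddx58, -0.79 for Irf9, -0.65 for H2-D1, -0.63 for Bst2, -0.48 for B2m, -0.39 for Stat2, 0.63 for Tap1, 0.68 for Ifitm2 and 1.74 for Ifitm1. The values of Ifit1 rest on a group with no counts, so their size is not a bound. Ifit1 and Rtp4 were tested only through CM shNT, so the filter on low counts favoured their negative values here. The cell type markers that moved with the knockdown at these points are given with the comparisons, and their part in the differences was not tested.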

How the results depend on the processing

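The alternatives were read out for knockdown results of single members, and the calls of pathway list genes were not checked in this way. Of 896 values of 76 such results, 845 kept their direction and side of the threshold, 40 lost a call and 11 changed sign. None of the 11 was called. Of 168 values of the 13 counts of calls, 166 stayed within 1.5 times. The exceptions were the differences between the effects in CM and at day 4, with 7 calls under DESeq2 in place of 11, and the day 0 knockdown, with 4 calls without replicate 2 of shBeclin1 in place of 9. Leaving out 1 library at a time gave 4 to 8 calls for the knockdown at day 0, 14 to 16 at day 4, 20 to 23 in CM and 14 to 16 without GF. It gave 24 to 29 (shNT) and 23 to 24 (shBeclin1) calls for day 4 against day 0, 24 to 26 and 20 to 23 for CM against day 4, 26 to 30 and 13 to 15 for CM against CM without GF, and 6 to 8, 8 to 12 and 17 to 22 for the differences between effects. In such fits the lone library of a group is assumed to vary like the others. With the replicate number as a block the knockdown counts were 9, 16, 23 and 17, no call of the 76 results changed, and the labels' numbers did not pair the libraries. Scaling by total counts turned B2m at day 0 to -0.00692 and in CM to -0.00472 and Stat2 without GF to -0.0128. Leaving out 1 library at a time gave -0.26 to 0.13 for Irf9 at day 4, -0.22 to 0.55 for Nlrc5 at day 4 and -1.50 to 0.32 in CM, -0.0227 to 0.184 for B2m in CM, and -0.0761 to 0.0823 for Stat2 without GF. The cause was not tested. Depth limits the members under 1 CPM, and the 2 libraries per group limit all tests.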
